A study of Mus musculus with 12 samples.

Results

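Potassium channel genes of the mouse dorsal root ganglion (DRG) were taken by name: every row of the 2 deposited count tables whose symbol starts with Kcn, which gave 94 of 44345 gene names. All 94 are protein-coding in the GENCODE vM21 annotation of the mouse genome, build mm10. They comprise 30 voltage-gated pore-forming genes, 10 genes of silent voltage-gated subunits, 17 genes of auxiliary subunits, 14 genes of tandem-pore channels, 15 genes of inward rectifiers and 8 genes of the Slo and SK family. The series asked how 10 days of environmental enrichment (EE) change gene expression in sciatic DRG (L4 to L6) relative to standard housing (SH). All mice were C57BL/6, 5 to 8 weeks old, and the labels name no allele or agent for any group. The columns of the whole-ganglion tables carry the word Sham after the housing, for SH and EE alike, and those of the captured tables do not. The labels do not explain it, so whether the whole-ganglion mice had a sham procedure is not known here. Whole ganglia, pooled from 2 mice per library, gave 3 SH and 3 EE libraries. Neurons with a diameter of at least 30 µm, cut by laser from stained sections of 3 mice per library, gave another 3 SH and 3 EE libraries. The preparations also differ in library kit (poly-A for whole ganglia, ribosomal depletion for captured cells), in RNA integrity number (above 7.5 against 6 to 7) and in read length (100 against 125 cycles). Capture and these differences cannot be told apart.

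Potassium channels carry the outward current that ends the action potential, sets the resting potential and limits repetitive firing. Voltage-gated Kv subunits assemble as tetramers. Kv5, Kv6, Kv8 and Kv9 subunits are silent alone and modify Kv2 channels. Tandem-pore channels give the background leak, inward rectifiers clamp the membrane near the potassium equilibrium, and most Slo and SK channels open with intracellular calcium or sodium. In sensory ganglia, Kv1 channels are known from large myelinated afferents, Kv1.4 and Kv4.3 from small nociceptors, and the inward rectifier Kir4.1 from the satellite glia that wrap the neurons.

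Reads assigned to genes numbered 11343579 to 17036481 per whole-ganglion library and 19296230 to 29434351 per captured library. The deepest captured library, EE replicate 1, was the only captured library of lane 1, SH replicate 2 was alone in lane 2, and the other 4 shared lane 3. In SH, 14 markers of large neurons summed to 8454 to 10486 CPM in captured cells and to 14777.5 to 15739 CPM in whole ganglia. CPM are the reads of a gene scaled to a common library total, here adjusted within each preparation by TMM (trimmed mean of M values). Capture and library kit cannot be told apart in these sums. The 20 nociceptor markers summed to 5017 to 6051 CPM in captured SH cells and 4688 to 5315 CPM in whole SH ganglia. The 12 markers of myelinating Schwann cells were lower in captured cells (1221 to 1526 CPM) than in whole ganglia (7732 to 9449 CPM). The 10 markers of neurons in general were lower too, at 6622 to 6706 CPM in captured SH cells and 10944 to 11076 CPM in whole SH ganglia. The 12 satellite glia markers summed to 3807 to 4027 CPM in captured SH cells and 4233 to 4689 CPM in whole SH ganglia. No marker of these lists was at 0 in every library. The cells are called captured neurons below for how they were taken, not for their markers. SH replicate 2 held the most skeletal muscle RNA among them, its 8 muscle markers summing to 747 CPM against 4.18 to 9.70 CPM in EE. In RNA of a mixed tissue, fewer cells of a type and less RNA per cell cannot be told apart. The labels name separate pools of mice per library, and the 3 libraries of a group are the replicates of every SD and test here.

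The most abundant potassium channel gene per length was Kcnab2, the cytoplasmic beta 2 subunit of Kv1 channels. The authors' FPKM, which divides reads by gene length and library size, gave it 145 ± 7.27 (SD, n = 3) in whole SH ganglia. Kcnip3, a calcium-binding subunit of Kv4 channels, followed with 77.4 ± 5.05 FPKM. Kcna1, the Kv1.1 pore subunit of large afferents, had 69.6 ± 1.96 FPKM, and Kcnip4, another Kv4 partner, 66.7 ± 4.55 FPKM. The last pair did not differ beyond its spread. Below these came Kcnk1, the tandem-pore channel TWIK-1, at 36.7 ± 1.32 FPKM and Kcnd1, the Kv4.1 pore subunit, at 35.8 ± 3.09 FPKM, which also lay within their spread. Auxiliary subunits, which have no pore of their own, thus took the first places. Kcnip genes made up 19.9% of the summed Kcn level in whole SH ganglia, Kcnab genes 18.2% and Kcna genes 14.4%. At least 1 FPKM was reached by 64 members, and at least 10 FPKM by 22.

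Kcnab2, Kcnip4 and Kcna1 were among the 4 highest members in captured neurons too, now together with Kcnb2. On CPM per kilobase, computed with the gene lengths that the authors' FPKM imply, Kcnab2 had the highest mean (82.2 ± 6.90, SD, n = 3, SH), followed by Kcnip4 (78.9 ± 6.23), Kcnb2 (74.7 ± 1.85) and Kcna1 (72.7 ± 6.26). The spreads of all 4 genes overlapped, so their order is not resolved: in SH replicate 2, Kcnab2 (74.9) lay below Kcnip4 (85.5) and Kcnb2 (76.3). The place of Kcnb2 rests on its length: the FPKM table holds it under 2 gene identifiers, and the other one would give 13.8 FPKM in whole ganglia and 105 CPM per kilobase in captured neurons, above Kcnab2. Kcnb2 encodes Kv2.2, a slow delayed rectifier, and stood only at rank 23 in whole ganglia with 9.86 ± 0.817 FPKM.

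**Figure D1:**
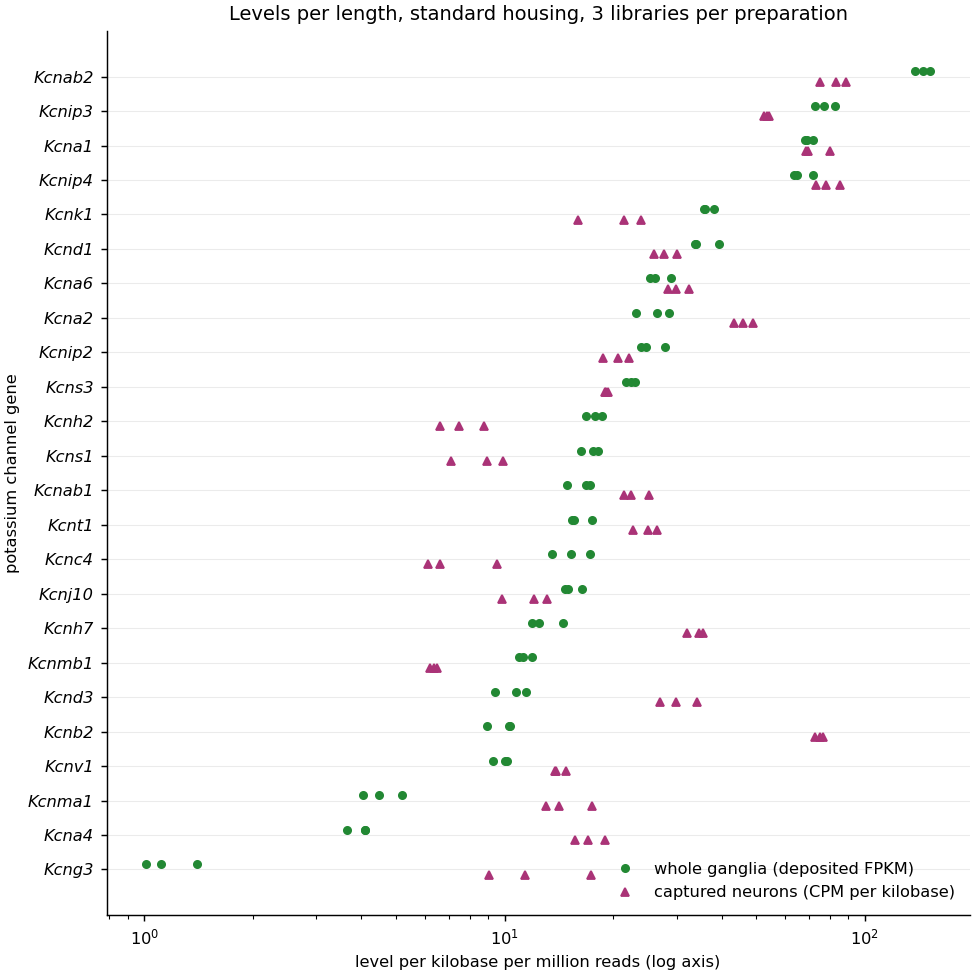
Level per length (log axis) of members with at least 10 in either preparation, in the 3 SH libraries each of whole ganglia (circles, deposited FPKM) and captured neurons (triangles, CPM per kilobase). Kcnab2 has the highest mean in both, while Kcnb2 lies near 9.86 in whole ganglia and near 74.7 in captured neurons.

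Side by side on CPM scaled by library size alone, 78 members could be set against each other in SH, and the median log2 ratio of captured over whole was -0.09, beside -0.20 over 14800 genes. A scaling by TMM (trimmed mean of M values) over the 6 libraries moved these medians to 0.12 and 0.01, so ratios are read relative to the median of all genes. Of the 78 members, 26 had all captured SH libraries above all whole SH libraries, 34 had all below and 18 overlapped. The same counts over all genes were 4588, 7039 and 3173. No test was made, since capture, kit, RNA quality and read length cannot be told apart. These log2 ratios were computed after adding 0.5 CPM, and the folds below are ratios of the plain means.

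The highest ratios of captured over whole levels were those of a silent subunit gene and of Kv2.2. Kcng3, the silent subunit Kv6.3, was singled out after its values were seen as the member with the highest ratio, 42.5 ± 14.4 CPM in captured and 3.96 ± 0.677 CPM in whole ganglia, 10.7-fold. Kcnb2 followed at 428 ± 10.6 and 56.6 ± 4.69 CPM, 7.57-fold. Kcna4, the fast-inactivating Kv1.4 of small neurons, reached 83.9 ± 8.12 against 19.2 ± 1.3 CPM, 4.37-fold. Kcnma1, the pore of the calcium-activated BK channel, had 75.6 ± 11.9 against 23.1 ± 2.94 CPM. Kcnd3, the Kv4.3 pore, was 2.88-fold higher. Among genes lower in captured neurons, Kcnc1 (Kv3.1) was 2.43-fold lower and Kcnc4 (Kv3.4) 2.07-fold. Silent subunits went both ways, since Kcng1 (Kv6.1), also singled out after its values were seen, had 0.658 ± 0.136 CPM in captured and 4.71 ± 0.246 CPM in whole ganglia, 7.16-fold lower. The leak channels Kcnk4 (TRAAK) and Kcnk3 (TASK-1) were 4.48-fold and 2.86-fold lower.

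Members known from large afferents (Kcna1, Kcna2, Kcns1, Kcng4 and Kcnc1) had a median log2 ratio of -0.99, and those known from small neurons (Kcna4, Kcnc4, Kcnd3 and Kcnk18) one of 0.97. Neither list went one way: in the first, Kcna2 was at 0.81 and Kcna1 at 0.06 with overlapping groups, and in the second Kcnc4 was at -1.04. Both medians kept their sign under the TMM scaling, at -0.77 and 1.19. These lists were written with results of these libraries known and are no independent evidence. The glial Kcnj10 (Kir4.1) was at 63.5 ± 9.06 CPM in captured SH neurons and within 1.31-fold of whole ganglia.

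**Figure D2:**
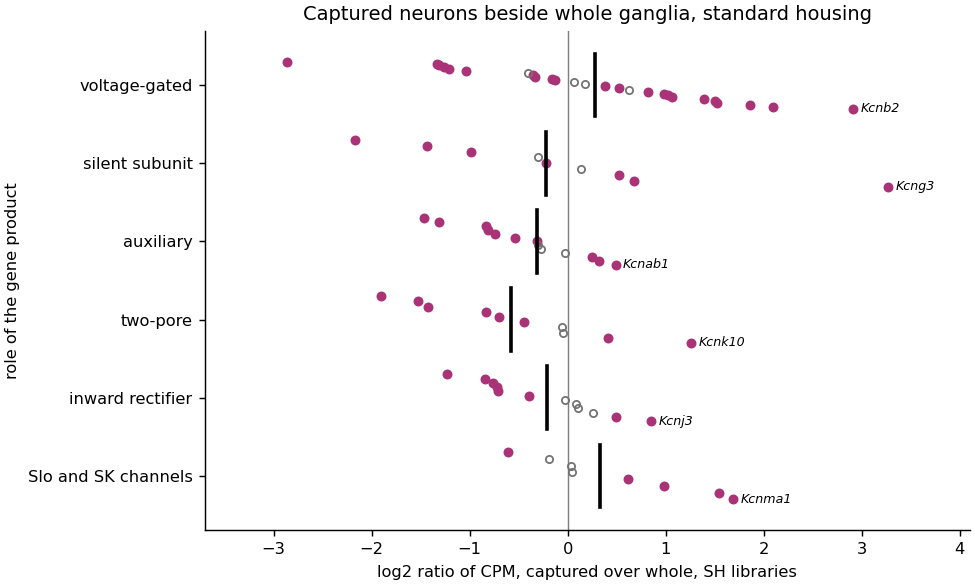
Log2 ratio of mean CPM (0.5 added) in captured over whole SH libraries for the 78 members tested in both, by role of the gene product. Filled points have no overlap between the 3 captured and 3 whole libraries, black bars are medians, and the highest gene of each role is named, with Kcng3 farthest to the right.

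In whole ganglia, no potassium channel gene passed the test of EE against SH. Of 94 members, 78 passed the filter on low counts, and 0 of them reached an adjusted p under 0.05 in edgeR's quasi-likelihood F test, adjusted over all genes after Benjamini and Hochberg, where 0.00631% of all genes did. The same was true with the lane as replicate block (0 members, 0.202% of all genes) and with DESeq2 and limma-voom. An unadjusted p under 0.05 was reached by 2 members, against 2.9% of all genes. The log2 fold changes of EE over SH had a median of 0.01, beside 0.00 over all genes, with 43 positive and 35 negative values. The 16 members under the filter were Kcna3, Kcna7, Kcna10, Kcne1, Kcne2, Kcnh4, Kcnj1, Kcnj5, Kcnj6, Kcnk7, Kcnk9, Kcnk15, Kcnk16, Kcnmb3, Kcnrg and Kcnv2.

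The abundant members show how close the libraries lay. Kcna1 had 650, 618 and 611 CPM in SH and 676, 614 and 599 CPM in EE, a log2 fold change of 0.01 (SE 0.067). Kcnab2 had 773, 808 and 847 CPM in SH and 772, 790 and 731 CPM in EE, a log2 fold change of -0.08 (SE 0.065). Kcnd3 had 104, 90.0 and 110 CPM in SH and 119, 99.7 and 104 CPM in EE, a log2 fold change of 0.08 (SE 0.087). In all 3 genes the groups overlapped. For Kcnj10 of the satellite glia the log2 fold change was -0.05 (SE 0.076).

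Groups did not overlap for 7 members, where 7.48% of all genes did so. EE was higher for 5 of them (3.19% of all genes): Kcnmb1, Kcnk3, Kcnh5, Kcns3 and Kcnh8. EE was lower for Kcnn2 and Kcnk18, a direction that 4.29% of all genes showed. The smallest p belonged to Kcnmb1, the beta 1 subunit of the BK channel known from smooth muscle. It had 50.5, 47.1 and 45.9 CPM in SH and 52.8, 56.8 and 55.0 CPM in EE, a log2 fold change of 0.20 (SE 0.071, edgeR unadjusted p = 0.0142, adjusted p = 1.00). For the 8 markers of smooth muscle and pericytes the median log2 fold change was 0.24 in the same libraries, 6 of them positive. They summed to 334 to 366 CPM in SH and 342 to 403 CPM in EE. Their median deviation from the SH mean was -0.37, 0.53 and 0.20 on the log2 scale in EE replicates 1, 2 and 3. Their part in the Kcnmb1 value was not tested. Kcnmb1 also lies within the span of Kcnip1 on the opposite strand of chromosome 11 (Kcnmb1 at chr11:33963013-33973641), and the sources used here do not state whether counting used the strand. Kcnk5, the acid-sensitive leak channel TASK-2, had 7.54, 7.80 and 5.43 CPM in SH and 4.05, 4.6 and 6.36 CPM in EE, a log2 fold change of -0.46 (SE 0.19), with overlapping groups.

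**Figure D3:**
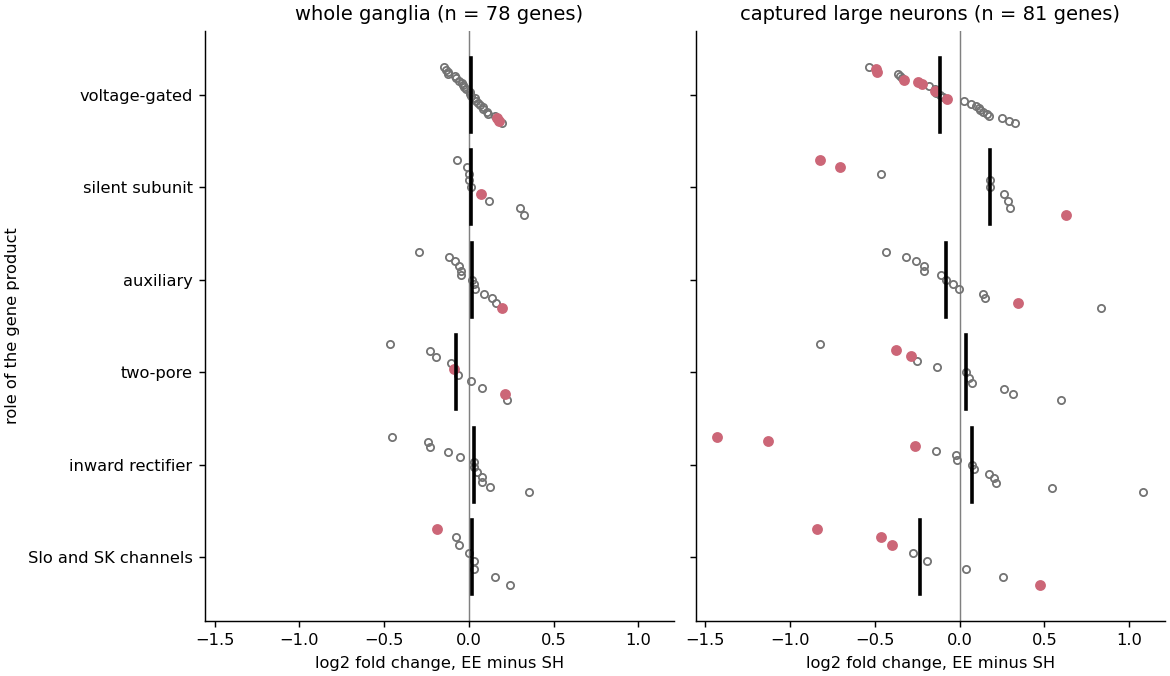
Log2 fold change of EE minus SH for every tested member, by role, in whole ganglia (78 genes) and captured neurons (81 genes). Filled points have no overlap between the 3 SH and 3 EE libraries, and black bars are medians; values spread more widely in captured neurons, where 17 filled points lie below 0 and 3 above.

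In captured neurons, the values of EE and SH lay further apart, but 0 of the 81 tested members passed the test over all 6 libraries, where 0.0185% of all genes did. The smallest adjusted p was 0.0898, for Kcnt1. An unadjusted p under 0.05 was reached by 26 members, against 15.9% of all genes tested. Of these, 20 were lower in EE (8.62% of all genes) and 6 higher (7.3% of all genes). The 6 SH and EE libraries were fully separated for 20 members (21.1% of all genes), with EE lower for 17 (10.9%) and higher for 3 (10.2%). The median log2 fold change was -0.04, beside 0.00 over all genes, with 37 positive and 44 negative values. The median absolute log2 fold change of the 78 members tested in both was 0.22 in captured neurons and 0.08 in whole ganglia, beside 0.14 and 0.06 over all 14800 genes tested in both. The captured libraries also varied more within groups, with a common biological coefficient of variation of 0.121 against 0.0741, and its part in these sizes was not tested.

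EE replicate 1, from lane 1, lay nearer the SH mean than both other EE libraries for 43 of the 81 members. The share over all genes is not given, so this count is no result about the members. Over genes in general, the chi-square of counts per degree of freedom was 16.3 and 21.5 between EE replicate 1 and EE replicates 2 and 3. It was 5.06 between EE replicates 2 and 3, and 6.54 to 13.8 among SH libraries. Without EE replicate 1, 9 members passed the edgeR test, where 3.64% of all genes did. With lane 3 alone, 2 SH against 2 EE libraries, 10 of 80 members passed (4.06% of all genes). Lower in EE on lane 3 were 7 of them (2.18% of all genes): Kcnc2, Kcnh6, Kcnd3, Kcna4, Kcnip2, Kcnt1 and Kcnip4. Higher were 3 (1.88% of all genes): Kcna1, Kcnk1 and Kcnh7. The 9 without EE replicate 1 were the same without Kcnh7. DESeq2 over all 6 libraries called 7 members (3.23% of all genes), Kcnc2, Kcnd1, Kcnd3, Kcnh6, Kcnk1, Kcnma1 and Kcnt1. It gave many scarcer members no adjusted p, among them Kcnj15, Kcnj6, Kcng2 and Kcnj9, so these could not be called. Its percentage is over all genes, those without an adjusted p included. The edgeR test without the filter on low counts called 13 members (2.48% of all genes). Leaving out any other library gave 0 calls. For the 7 members lower on lane 3, the median deviation from the SH mean was -0.52 and -0.59 on the log2 scale in EE replicates 2 and 3. In EE replicate 1, which did not enter that choice, it was -0.17, close to the -0.14 of SH replicate 3. SH replicates 1 and 2 were at 0.02 and 0.15. The SH mean includes SH replicates 1 and 3, which entered the choice.

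**Figure D4:**
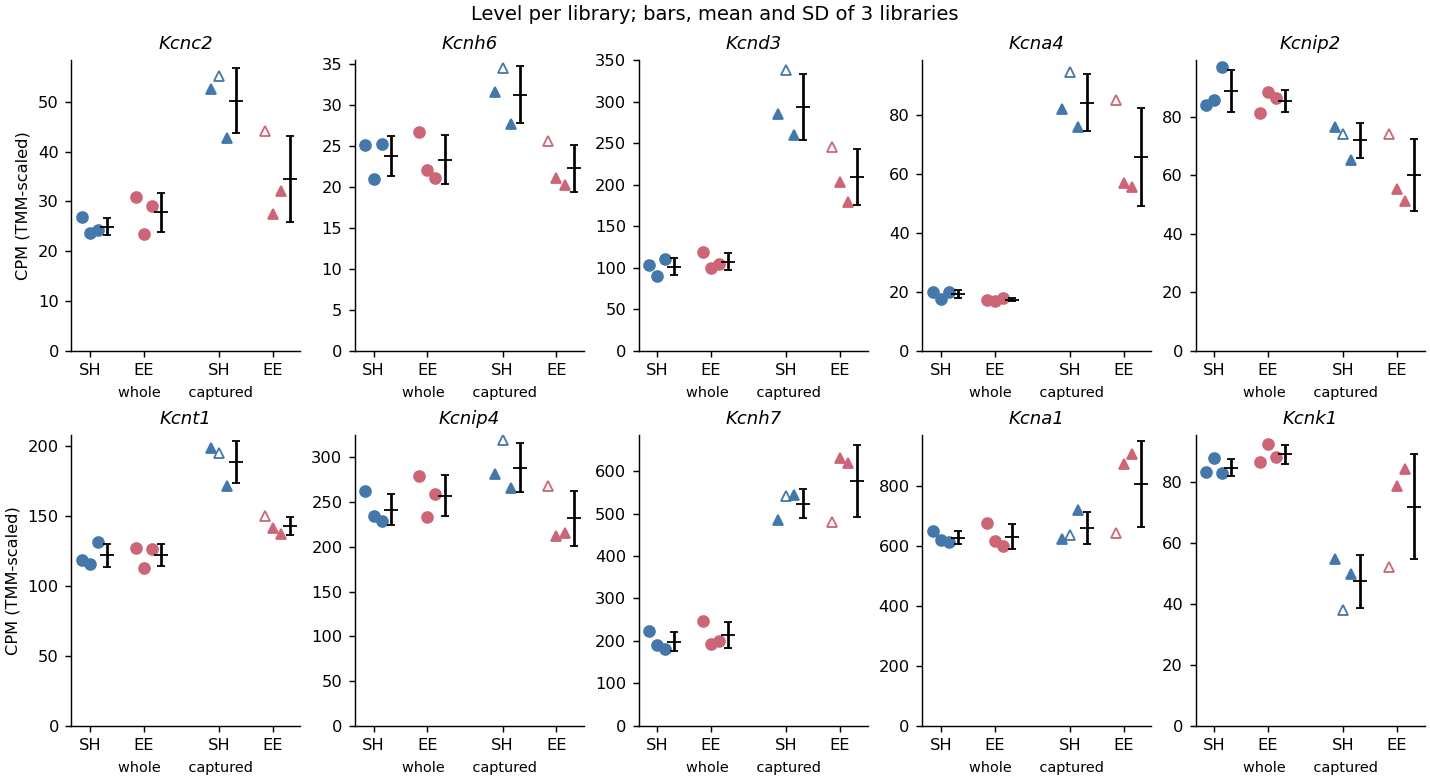
TMM-scaled CPM per library of the 10 members called on lane 3 alone, in whole ganglia (circles) and captured neurons (triangles), SH in blue and EE in red, with mean and SD of 3 libraries beside each group. Open triangles are the captured libraries of lanes 1 and 2; the open EE triangle lies nearer the SH values than the filled ones for Kcna4, where it reads 85.2 CPM against 57.0 and 55.7.

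Voltage-gated genes had negative log2 fold changes for 16 of 27 tested members in captured neurons. All 3 Kv4 genes had negative values in the fit of all libraries. Kcnd1 and Kcnd3 were negative in each of the 15 alternatives too, and Kcnd2, which was tested in 14 of them, reached as near to 0 as -0.0014. Kcnd3 (chr3:105452330-105674002), the Kv4.3 pore of the fast transient current, had 285, 338 and 260 CPM in SH and 246, 203 and 179 CPM in EE. Every EE library lay below every SH library, at a log2 fold change of -0.49 (SE 0.12, edgeR adjusted p = 0.129). On lane 3 the value was -0.51 (edgeR adjusted p = 0.00172), and Kcnd3 fell there. Kcnd1 (Kv4.1) had 136, 164 and 147 CPM in SH and 116, 118 and 123 CPM in EE, again with no overlap, at -0.33 (SE 0.077, edgeR adjusted p = 0.129). Kcnb2 (Kv2.2) had a log2 fold change of -0.14 (SE 0.066), also with separated groups.

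Kcnc2, the Kv3.2 subunit of fast-spiking cells, had 52.5, 55.2 and 42.8 CPM in SH and 44.2, 27.5 and 32 CPM in EE. Its groups overlapped through EE replicate 1. The log2 fold change was -0.53 (SE 0.16, edgeR adjusted p = 0.17) over all libraries and -0.68 (edgeR adjusted p = 0.00444) on lane 3. Kcnh6, the erg-type channel Kv11.2, had 31.6, 34.5 and 27.6 CPM in SH and 25.5, 21.1 and 20.2 CPM in EE. Its groups were separated, at -0.49 (SE 0.12, edgeR adjusted p = 0.129) and -0.52 on lane 3 (edgeR adjusted p = 0.018). Kcna4 had 82.0, 94.9 and 76.2 CPM in SH and 85.2, 57.0 and 55.7 CPM in EE. Here EE replicate 1 lay among the SH libraries, and the log2 fold change was -0.35 (SE 0.15, edgeR adjusted p = 0.299) over all libraries and -0.58 (edgeR adjusted p = 0.0134) without that library.

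Other Kv genes had higher values in EE. Kcna1 had 622, 634 and 719 CPM in SH and 641, 872 and 905 CPM in EE. Only EE replicates 2 and 3 lay above all SH libraries, and the log2 fold change was 0.29 (SE 0.12, edgeR adjusted p = 0.268) over all libraries, 0.41 on lane 3 (edgeR adjusted p = 0.00425) and 0.20 without EE replicate 3. Kcnh7, the erg-type Kv11.3, had 485, 543 and 543 CPM in SH and 480, 632 and 619 CPM in EE, and passed on lane 3 alone (0.28, edgeR adjusted p = 0.0221), with 0.14 over all libraries. Kcna2 (Kv1.2), the usual partner of Kv1.1 in the juxtaparanode, had a log2 fold change of 0.16 (SE 0.083). Of the Kv7 channels, which carry the M current that restrains repetitive firing, Kcnq3 had a log2 fold change of 0.02 (SE 0.12) and Kcnq5 one of -0.18 (SE 0.095).

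Silent subunits were split. All 3 Kv9 genes (Kcns1, Kcns2 and Kcns3) had positive values, with a median log2 fold change of 0.28, and 1 of them turned negative without EE replicate 1. Kcns1, which pairs with Kv2 and is linked to pain sensitivity, had 24.0, 19.8 and 27.0 CPM in SH and 24.6, 32.3 and 30.4 CPM in EE, a log2 fold change of 0.30 (SE 0.13, edgeR adjusted p = 0.313). Kcng2 (Kv6.2) was lower in every EE library, with 3.98, 3.67 and 2.79 CPM in SH and 2.36, 2.03 and 1.47 CPM in EE (log2 fold change -0.82, SE 0.25, edgeR adjusted p = 0.17). Kcng3, named above for its captured level, had 30.2, 60.0 and 38.3 CPM in SH and 22.6, 26.8 and 29.7 CPM in EE. Its groups did not overlap, and its log2 fold change of -0.70 lay between -0.90 and -0.38 as single libraries were left out and at -0.27 on lane 3.

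Among auxiliary subunits, 0 of the 4 Kcnip genes, whose products bind Kv4 pores, passed over all libraries. Kcnip3 had a log2 fold change of -0.04 (SE 0.057) with overlapping groups. Kcnip4, which slows Kv4 inactivation, had 281, 319 and 265 CPM in SH and 267, 212 and 216 CPM in EE, a log2 fold change of -0.32 (SE 0.10, edgeR adjusted p = 0.187), and -0.35 on lane 3 (edgeR adjusted p = 0.00504). EE replicate 1 lay between SH replicates 3 and 1. Kcnip2 had 76.7, 74.2 and 65.2 CPM in SH and 74.3, 55.4 and 51.1 CPM in EE, and fell on lane 3 (-0.42, edgeR adjusted p = 0.0193). Kcnip1 went the other way, with 27.7, 21.3 and 27.3 CPM in SH and 28.8, 37.2 and 30.8 CPM in EE and no overlap (log2 fold change 0.34, SE 0.13, edgeR adjusted p = 0.229). Kcnmb1, on the opposite strand within the same span, had -0.11 (SE 0.084). Kcnab2 had a log2 fold change of 0.15 (SE 0.070) and Kcnab1 one of -0.21 (SE 0.086).

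Tandem-pore genes had 6 positive and 5 negative values. Kcnk1 (chr8:125995170-126030685), a weakly rectifying leak channel also found in endosomes, had 54.7, 37.9 and 49.6 CPM in SH and 52.1, 78.8 and 84.3 CPM in EE. EE replicate 1 lay among the SH libraries and the other pair well above them. Its log2 fold change was 0.60 (SE 0.18, edgeR adjusted p = 0.169) over all libraries, 0.64 on lane 3 (edgeR adjusted p = 0.000849) and 0.46 without SH replicate 2. Kcnk18, the calcineurin-regulated TRESK of nociceptors, had a log2 fold change of -0.25 (SE 0.14), Kcnk2 (TREK-1) one of -0.13 (SE 0.21) and Kcnk3 (TASK-1) one of 0.04 (SE 0.18).

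Inward rectifiers had 7 positive and 6 negative values, and the largest changes were those of scarce genes. Kcnj15 (Kir4.2) had 1.21, 0.894 and 1.24 CPM in SH and 0.372, 0.355 and 0.505 CPM in EE, on 7 to 24 reads per library. Its groups did not overlap, at a log2 fold change of -1.43 (SE 0.37, edgeR adjusted p = 0.13). Kcnj6 (Kir3.2, a pore of G protein-gated GIRK channels) had 1.87, 3.95 and 2.53 CPM in SH and 1.39, 1.17 and 1.24 CPM in EE, at -1.13 (SE 0.31, edgeR adjusted p = 0.147) and -0.79 without SH replicate 2. Kcnj9 (Kir3.3), another GIRK pore, had 1.81, 0.565 and 1.45 CPM in SH and 1.35, 4.01 and 2.85 CPM in EE, at 1.08 (SE 0.46) and 0.72 without SH replicate 2. These 3 genes rest on few reads. Kcnj10 of the satellite glia was at 53.1, 73.3 and 65.4 CPM in SH and 51.8, 69.7 and 68.3 CPM in EE, a log2 fold change of -0.02 (SE 0.14).

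The Slo and SK family held the member with the smallest p. Kcnt1 (chr2:25863734-25918273) encodes Slack, a sodium-activated potassium channel. It had 199, 195 and 171 CPM in SH and 150, 142 and 137 CPM in EE. The highest EE library lay below the lowest SH library, at a log2 fold change of -0.40 (SE 0.074, edgeR adjusted p = 0.0898). Over 15 alternatives its value lay between -0.46 and -0.33, and 4 of them called it, among them DESeq2 (adjusted p = 0.000775) and lane 3 (edgeR adjusted p = 0.00779). Kcnma1 of the BK channel had 65.3, 91.2 and 71.7 CPM in SH and 48.8, 55.8 and 61.4 CPM in EE, with no overlap, at -0.46 (SE 0.13, edgeR adjusted p = 0.151) and -0.22 on lane 3, which leaves out its highest SH and its lowest EE library. Kcnn1 (SK1) had a log2 fold change of -0.28 (SE 0.11). Kcnn4, the intermediate-conductance IK channel, was higher in every EE library, with 8.52, 7.01 and 10.4 CPM in SH and 11.4, 12.8 and 11.9 CPM in EE (0.47, SE 0.15, edgeR adjusted p = 0.19).

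**Figure D5:**
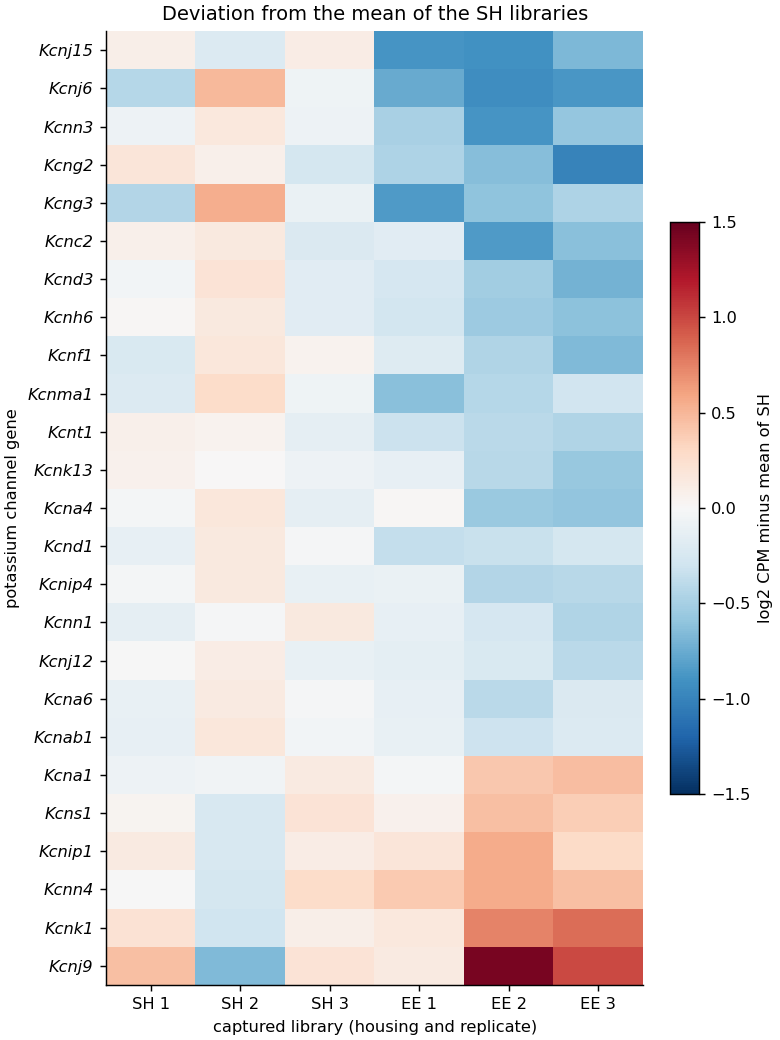
Log2 CPM (0.5 added) in each captured library minus the mean of the 3 SH libraries, for 25 of the 26 members with an unadjusted edgeR p under 0.05; the other, lower in EE, is counted but not shown by name. EE 1 is paler than both EE 2 and EE 3 for 15 of the 19 lower members shown and for all 6 higher ones.

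Start regions of the members called on lane 3 alone, in either direction, were read from RefSeq (GRCm38.p6, the build mm10). They are the sequence nearest to the differing transcripts. Windows of 300 bases, from 250 before to 50 after a start, were held for 69 members (94 windows) and for 8 of the 10 genes of lane 3 (12 windows). Kcna4, Kcnh6 and Kcnd3 stand for the lower genes and Kcnk1 for the higher ones, all on the plus strand, at chr2:107290339-107290638, chr11:106007898-106008197, chr3:105451640-105451939 and chr8:125994852-125995151. Capitals mark the GC box GGGCGG, the TATA box TATAAA or TGACG, the core of the cyclic AMP response element, on either strand; a GC box and TGACG can share a letter.
Kcna4: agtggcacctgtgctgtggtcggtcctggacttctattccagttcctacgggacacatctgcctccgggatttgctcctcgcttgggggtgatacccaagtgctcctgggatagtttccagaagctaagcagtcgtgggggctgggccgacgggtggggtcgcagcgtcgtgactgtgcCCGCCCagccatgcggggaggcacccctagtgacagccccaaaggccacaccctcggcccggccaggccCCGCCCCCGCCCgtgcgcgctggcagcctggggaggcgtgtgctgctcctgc
Kcnh6: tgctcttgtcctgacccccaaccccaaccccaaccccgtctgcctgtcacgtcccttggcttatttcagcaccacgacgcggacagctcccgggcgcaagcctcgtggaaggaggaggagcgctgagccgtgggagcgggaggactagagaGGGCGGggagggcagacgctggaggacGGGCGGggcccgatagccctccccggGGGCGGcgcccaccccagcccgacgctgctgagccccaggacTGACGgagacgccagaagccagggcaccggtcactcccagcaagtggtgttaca
Kcnd3: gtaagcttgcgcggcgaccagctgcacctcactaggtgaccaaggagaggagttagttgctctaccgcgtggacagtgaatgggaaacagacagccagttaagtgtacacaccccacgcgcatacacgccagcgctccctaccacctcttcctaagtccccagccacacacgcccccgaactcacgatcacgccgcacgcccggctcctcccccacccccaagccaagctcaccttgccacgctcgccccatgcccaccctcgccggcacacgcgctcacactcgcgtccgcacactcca
Kcnk1: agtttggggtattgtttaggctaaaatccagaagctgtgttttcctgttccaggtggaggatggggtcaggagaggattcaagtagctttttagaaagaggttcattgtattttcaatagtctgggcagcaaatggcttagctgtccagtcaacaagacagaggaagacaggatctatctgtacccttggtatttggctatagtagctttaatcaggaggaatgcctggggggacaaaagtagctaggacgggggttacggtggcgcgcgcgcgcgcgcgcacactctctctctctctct
A GC box was in 45 of the 94 member windows (47.9%) and in 35.7% of all 32851 windows. It occurred in 5 of the 12 windows of lane 3, each of a different gene (Kcnh7, Kcna4, Kcnc2, Kcnh6 and Kcnip2). Several of the 12 windows are overlapping windows of Kcnc2, so they are not independent. TGACG was in 18 of 94 member windows (19.1%) and 20.8% of all, and in 1 of the 12, that of Kcnh6. TATAAA was in 5 member windows (5.32%) and 13.6% of all, and in none of the 12. Median GC content was 58.0% in member windows and 52.7% in all. Kcnk1 and Kcnd3 hold none of these letters in the window, and a match describes letters, not a bound site.

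Markers of neuron classes differed between EE and SH in the same captured libraries as the members. For the 20 nociceptor markers the median log2 fold change was -0.46 (18 negative, 13 with separated groups), and they summed to 5017 to 6051 CPM in SH and 3905 to 4843 CPM in EE. The 14 markers of large neurons had a median of 0.45 (13 positive) and summed to 8454 to 10486 CPM in SH and 10907 to 14847 CPM in EE. Potassium channel genes known from either class had the same signs: 5 of 5 of the large-afferent list were positive (median 0.26) and 4 of 4 of the small-neuron list negative (median -0.35). One of the first list turned negative without EE replicate 3, and all 4 of the second stayed negative under each alternative. EE replicate 1 was the EE library nearest the SH mean for 43 of the 81 members, with no share over all genes beside it. Its deviations for both neuron classes were the smallest of the EE libraries, -0.24 for nociceptors against -0.55 and -0.43, and 0.17 for large neurons against 0.54 and 0.57. Other marker lists went either way: for Schwann cell markers its deviation was the largest, -0.44 against 0.14 and 0.05, and for satellite glia markers the smallest, 0.05 against 0.35 and 0.25. The 12 satellite glia markers had a median of 0.18 (11 positive). The part of these markers in the potassium channel values was not tested, and both channel lists were written with results of these data known.

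The housing effect in captured neurons was set against that in whole ganglia by a test of the difference itself over all 12 libraries. For 0 members did it pass (0% of all genes), and 17 had an unadjusted p under 0.05, against 11.7% of all genes. The smallest was that of Kcnt1, with a difference of -0.41 (SE 0.11, edgeR adjusted p = 0.208). With the captured libraries of lane 3, Kcnc2 (-0.84), Kcnd3 (-0.61) and Kcnk1 (0.56) passed, where 0.988% of all genes did. Without captured EE replicate 1, these 3 and Kcnip4 passed (1.32% of all genes), and without the filter on low counts 8 members (1.24% of all genes). Over the 78 members tested in both, 39 log2 fold changes had the same sign in the 2 preparations and 39 the opposite one. No libraries are shared between them. Kcnd3 had 0.08 in whole ganglia and -0.49 in captured neurons. Over all 12 libraries its difference was -0.59 and did not pass (SE 0.16, edgeR adjusted p = 0.221).

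Partner proteins of potassium channels, from a list of 28 genes that are not Kcn, are given for comparison. Of these, 24 were tested in each preparation, with 17 positive and 7 negative values in whole ganglia and 12 each way in captured neurons, and 0 passed over all libraries in either. In captured neurons Ank3, the ankyrin that holds Kv7 channels at the axon initial segment, had 1077, 1346 and 1053 CPM in SH and 795, 813 and 888 CPM in EE, a log2 fold change of -0.48 (SE 0.095, edgeR adjusted p = 0.096). Its EE libraries all lay below SH, and on lane 3 its value was -0.32 (edgeR adjusted p = 0.0063). Dpp10, an accessory subunit of Kv4 channels, had -0.21 (SE 0.095) and fell on lane 3 (-0.32, edgeR adjusted p = 0.0109). Calm3 is a calmodulin gene whose product sits on SK and Kv7 channels. It had 863, 731 and 836 CPM in SH and 990, 1013 and 974 CPM in EE, at 0.29 (SE 0.072, edgeR adjusted p = 0.129). On lane 3 its value was 0.23 (edgeR adjusted p = 0.0294). Dlg2, a scaffold of Kv1 clusters, had 0.31 (SE 0.11) and rose on lane 3 (0.41, edgeR adjusted p = 0.0102). On lane 3, 4.06% of all genes passed.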

How the data were processed

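Whole ganglia and captured neurons each gave 6 RNA-seq libraries. The deposited tables hold whole-number read counts per gene made by the authors, and FPKM for whole ganglia that are proportional to these counts. A second deposited table for captured neurons is a rescaling of the counts and was not used. The submitters' processing notes name TopHat2 2.0.12, HTSeq 0.6.0 and mm10, and give no roles. The 5 summary rows, 42.3 to 56.6% of the reads in a library, were left out. The log2 fold changes of the 94 members come from fits on all genes with edgeR 4.0.16 in R 4.3.3 (filterByExpr, TMM scaling, quasi-likelihood test, Benjamini-Hochberg adjustment, threshold 0.05), each preparation on its own. SE is the log2 fold change divided by the root of the F statistic. CPM are TMM-scaled within a preparation, the marker sums included. Member levels set between captured neurons and whole ganglia, and CPM per kilobase, were scaled by library size alone unless TMM is named. Alternatives were DESeq2 1.42.0, limma-voom (limma 3.58.1), other scalings, no filter, average log2 CPM of at least 3, a length and GC correction, lane 3 alone, a replicate block, and leaving out each library. In whole ganglia the labels put libraries of the same number in one lane, and their deviations correlated at 0.327, 0.146 and 0.10. Pairs of unlike number there ranged from -0.329 to 0.186, so the ranges overlap. In captured neurons only the libraries numbered 3 share a lane, and same-number deviations correlated at 0.089, -0.009 and 0.119. The numbers therefore do not pair those libraries by lane. Replicates differed beyond sampling noise. The scripts were tested on simulated data. A few members are counted but not reported by name here. Members and lists were chosen with earlier results of these data known. Named were members called in any fit listed in the rule, the 8 with the smallest p per direction and preparation, the 8 with the highest level per length, and a list of members with known roles in sensory ganglia.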

Additional observations from a re-analysis of the deposited data

How the results depend on the processing

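No member passed in whole ganglia under any alternative, the replicate block included (0 members). The log2 fold change of Kcnj11 there, 0.36 over all libraries, was -0.025 without EE replicate 1 and 0.61 without EE replicate 3, on 20 to 44 reads per library. In captured neurons 0 members passed over all libraries and with the replicate block, 7 with DESeq2, 13 with no filter, 10 on lane 3 alone and 0 to 9 as single libraries were left out, the 9 without EE replicate 1. The median log2 fold change of the members there was -0.04, -0.067 at an average log2 CPM of at least 3, -0.077 on lane 3 and between -0.083 and -0.034 as single libraries were left out. For the difference between preparations 0 members passed, 8 with no filter, 3 with captured lane 3 and 0 to 4 as single libraries were left out, the 4 without captured EE replicate 1. The median captured-over-whole ratio in SH turned from -0.09 to 0.12 with TMM over the 6 libraries. The cause of these shifts was not tested. Of 668 alternative values of named members in captured neurons, 38 passed the threshold that the value over all libraries missed. Depth limits the scarce members, such as Kcnj15 with 7 to 24 reads per captured library.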
